A study of Mus musculus with 27 samples.

Results

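Of the 30815 accessible regions counted in mouse cardiac fibroblasts, 352 (1.14%) were moved in opposite directions by single cardiac reprogramming factors, more open with at least 1 factor and more closed with at least 1 other. They were chosen from the counts themselves. For each group, x was the mean of 3 libraries in CPM (each count divided by its library total and scaled to 1e6) plus 5, and a region was taken when the largest of its 3 ratios of x in a single-factor group to x in the control was 2 or more and the smallest 0.5 or less. The single factor with the largest ratio is called the opener of a region, the factor with the smallest ratio its closer, and the factor left over the remaining factor. "Opened" and "closed" name only these ratios. Because the control and single-factor libraries made the choice, their values at these regions are a description without a test. The pairs and the triple combination did not enter the choice, and the question put to them was whether the opener or the closer prevailed when both were present.

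The assay was ATAC-seq, which reads out open chromatin as the places where a transposase could cut. The cells were a line of neonatal cardiac fibroblasts of strain Cd-1 that expresses large T antigen and has the genotype alpha-MHC-GFP. They received retroviruses for Gata4 (G), Mef2c (M) or Tbx5 (T) alone, for the pairs GM, GT and MT, or for all 3 factors (GMT), each with the chemicals sb431542 and xav939, inhibitors of Tgfβ and Wnt signalling. The control received a dsRed retrovirus and no chemicals. All cells were taken unsorted at day 2, so a library can also hold cells that a virus did not reach, and more cells with an open site cannot be told apart from a wider opening per cell. Also, each of the 8 groups had 3 libraries, called biological replicates. What separates the replicates is not given, so p-values measure only the spread between these samples, which may be technical. Every ratio to the control holds the factors and the chemicals together, whereas opener and closer, and all pairs and GMT, are matched for the chemicals.

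Gata4, a zinc-finger protein, Mef2c, a MADS-box protein, and Tbx5, a T-box protein, are heart-forming transcription factors that, forced together into fibroblasts, turn some of them towards cardiomyocyte-like cells. GATA factors are known for binding sites in closed chromatin, and Gata4 and Tbx5 bind each other and share many sites in heart muscle cells. Mef2c works with both in heart muscle gene programmes. Distal accessible regions are often enhancers, where several such factors can act at 1 site.

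Library totals ran from 241394 to 1704896 counts, with a median of 661976, so 1 count was worth 4.14 CPM in the shallowest library, GMT replicate 1. The library labelled GT replicate 1 stood apart. Its Spearman correlations across the 20494 regions with enough counts to test were 0.941, 0.824 and 0.913 with the G libraries, and 0.73 and 0.722 with GT replicates 2 and 3. The counts and tests that set GT against another group are therefore also given without this library. Regions carry no gene names in the counts, so the labelled cell type was not checked against marker genes, and regions are named by their coordinates in build mm9.

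The 352 regions fell into 6 classes by opener and closer. G opened and T closed 92, M opened and T closed 88, and M opened and G closed 64. T opened 75, of which M closed 40 and G closed 35, and G opened and M closed 33. Taken singly, the threshold of 2 or more was met by 8.42% of all regions in G, 8.76% in M and 10.1% in T. That of 0.5 or less was met by 4.21% in G, 5.34% in M and 9.51% in T. Tbx5 was the closer in 180 members, and the opener in 75. The remaining factor mostly stayed within the thresholds. It closed the region as well in 27 members opened by G, 28 opened by M and 8 opened by T. These include 17 regions opened by G, closed most by T and also closed by M, and 18 opened by M, closed most by T and also closed by G. It opened the region as well in 2 members opened by both M and T and in 1 opened by both G and M.

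All 352 members passed the filter on low counts. The rule makes this likely, as it asks for a high mean level in the opener, and nothing more is read from it. The median of the opener's log2 ratio was 1.31 and of the closer's -1.19, on the scale of x. At the edge of the rule, chr12:110129359-110129565 was just inside with a largest ratio of 2.0071, and chr1:59501039-59501490 just outside with 1.9999. For the smallest ratio, chr3:64770861-64771308 was just inside at 0.4999 and chr10:86861586-86861788 just outside at 0.5003. The members were intermediate in the control, with a median of 23.0 CPM and quartiles of 15.4 and 32.3, against a median of 17.8 and quartiles of 7.80 and 49.9 over the regions tested. Room to move both ways is part of the rule. In 351 of 352 members each opener library was above each closer library. The rule chose on these same libraries and makes this likely, so nothing is read from it.

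Within groups the libraries differed in strength. Over the regions opened by G and closed by T, the median log2 of CPM plus 5 over control x was 1.47, 0.712 and 1.46 in the 3 G libraries. It was -1.50, -1.46 and -0.862 in the 3 T libraries. G replicate 2 and T replicate 3 lay nearest to the control in every class in which their factor was opener or closer, except that T replicate 2 lay lower than T replicate 3 in regions opened by T and closed by M. G replicate 2 had the lowest total of its group and T replicate 3 the middle one, and the part of depth was not tested. The GT libraries did not form 1 cluster in the same regions, at 1.35, 0.158 and 0.038.

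**Figure D1:**
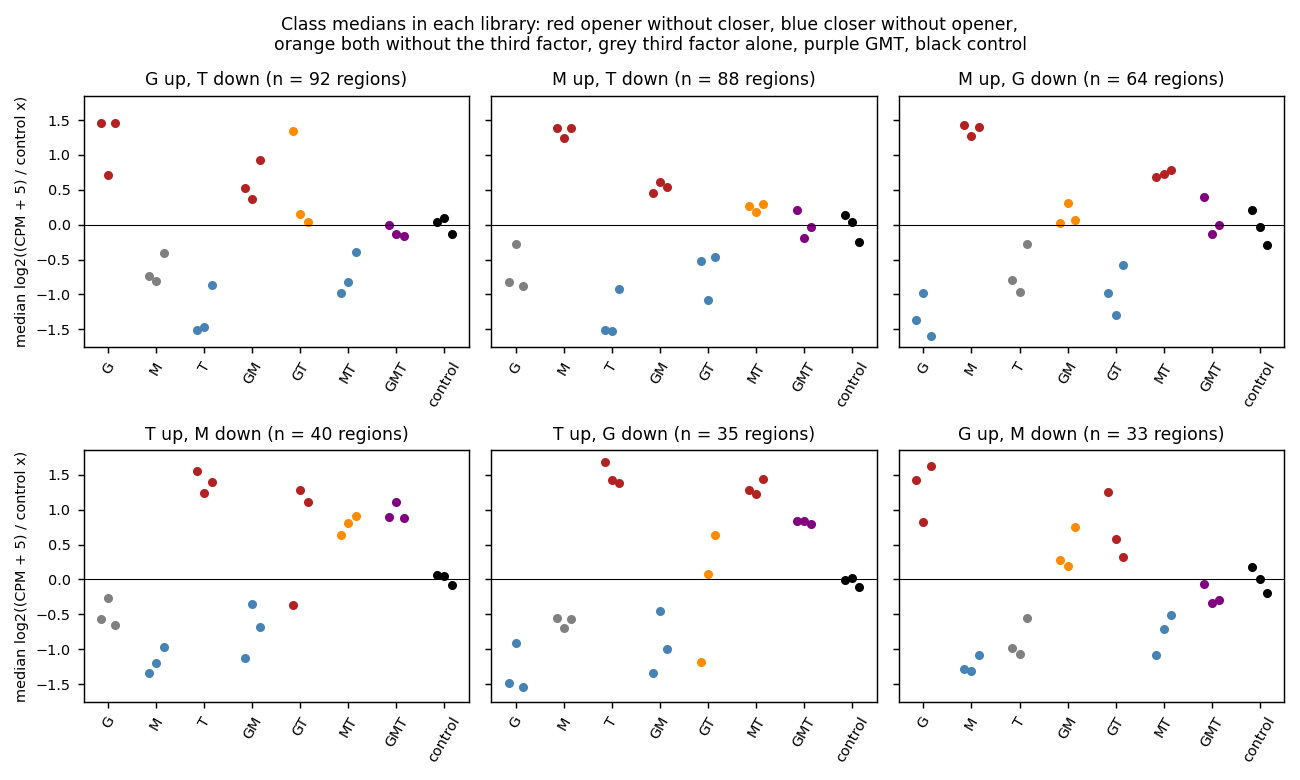
Each of the 6 panels is a class of regions, each point a library, and the y axis gives the class median of log2((CPM + 5) / control x). Red points are groups with the opener and without the closer, blue points groups with the closer and without the opener, orange points the pair of both, grey the remaining factor alone, purple GMT and black the control. GMT medians lie between 0.796 and 1.11 in both classes opened by T, and the first GT library lies near the G libraries in every class.

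The leading region of each class shows how far a single site swung. Leading regions had the largest value of the smaller of the 2 log2 changes in their class. Among regions opened by G and closed by T, chr3:105721047-105721252 had 142, 119 and 163 CPM in the 3 G libraries and 0, 2.96 and 7.25 CPM in the T libraries, against 24.0, 31.2 and 23.2 CPM in the control. With Mef2c beside either factor the site stood at 103, 101 and 152 CPM in GM and at 9.97, 14.4 and 21.0 CPM in MT. The GM libraries did not overlap the MT libraries. GT had 144, 22.0 and 25.9 CPM, so that its first library was at the level of G and the other two near that of the control. GMT had 16.6, 22.0 and 30.2 CPM, overlapping the control.

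In regions opened by M and closed by T the leading site was chr2:84624028-84624336, with 59.2, 63.0 and 65.8 CPM in M and 0, 1.48 and 3.62 CPM in T, against 13.1, 16.2 and 19.1 CPM in the control. The pair MT had 41.1, 52.7 and 44.4 CPM, all above the control. GM had 66.1, 61.4 and 61.8 CPM, and GT 28.4, 9.32 and 7.06 CPM. With all 3 factors the libraries held 12.4, 36.7 and 33.0 CPM, of which the first rests on 3 counts. The second-ranked site, chr7:151926031-151926595, took the other course in the pair. Its M libraries had 97.6, 94.0 and 112 CPM and its T libraries 10.5, 1.48 and 7.25 CPM, and MT had 22.3, 20.8 and 7.01 CPM, against 35.0, 38.7 and 20.8 CPM in the control, so the second MT library equalled the lowest control library after rounding. The widest leading site was chr10:112066688-112067591, at 904 bp, with 432, 444 and 519 CPM in M, 15.7, 20.7 and 65.2 CPM in T, and 173, 198 and 100.4 CPM in the control. There MT (147, 182 and 227 CPM) and GMT (220, 79.5 and 152 CPM) overlapped the control.

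In regions opened by M and closed by G, chr2:6911839-6912415 had 120.0, 112 and 121 CPM in M and 6.23, 10.4 and 5.83 CPM in G, against 45.9, 31.2 and 17.4 CPM in the control. Here the pair GM sided with the closer, at 16.04, 12.3 and 17.0 CPM, each below the lowest control library. MT had 150.2, 177 and 138 CPM and GT 4.94, 9.32 and 16.5 CPM, while GMT had 45.6, 41.6 and 65.1 CPM. The next sites of the class leaned the other way in the pair. At chr2:159558327-159558529 GM averaged 67.4 ± 16.4 CPM and the control 49.2 ± 11.8 CPM (SD, n = 3 each), between 149 ± 30.2 CPM in M and 13.0 ± 6.76 CPM in G. At chr4:47616679-47617052 GM averaged 92.1 ± 28.0 CPM and the control 59.4 ± 1.91 CPM. By edgeR's quasi-likelihood test GM was not called different from the control at any of these sites (adjusted p = 0.0802, 0.523 and 0.218, in the order named).

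The leading sites opened by T differed in how far combinations held the opener's level. Among those closed by M, chr4:45780801-45781352 had 316, 197 and 163 CPM in T and 9.60, 15.5 and 26.3 CPM in M, against 54.6, 81.1 and 72.2 CPM in the control. MT held 140, 87.8 and 152 CPM and GMT 133, 257 and 137 CPM, all above the 3 control libraries. GT had 32.1, 225 and 144 CPM, with the first library below the control. Among sites closed by G, chr13:20641902-20642105 had 81.0, 75.4 and 94.2 CPM in T and 2.67, 10.4 and 4.53 CPM in G, against 24.0, 22.5 and 24.9 CPM in the control. GMT had 108, 64.8 and 76.5 CPM, overlapping T and not the control. GT had 3.70, 50.9 and 75.3 CPM, so the library labelled GT replicate 1 had the level of G. The top-ranked site of this class, chr3:135757525-135757922, had 91.5, 62.1 and 61.6 CPM in T and 0, 2.59 and 1.94 CPM in G, against 10.9, 29.9 and 29.9 CPM in the control. There GT had 4.94, 18.7 and 23.5 CPM and GMT 45.6, 8.56 and 22.7 CPM, and both overlapped the control.

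Of the 33 regions opened by G and closed by M, 10 were closed by T as well, among them the 3 leading sites. At chr8:36529436-36529805 the G libraries had 72.9, 28.5 and 54.4 CPM, the M libraries 0, 0.969 and 4.38 CPM and the T libraries 5.23, 2.96 and 0 CPM, against 13.1, 11.2 and 17.4 CPM in the control. GM had 37.2, 14.7 and 37.1 CPM and GMT 29.0, 42.8 and 24.5 CPM. The GMT libraries did not overlap the control, although 2 of the factors, alone, left the site at 0 to 5.23 CPM. The first GMT library rests on 7 counts. By edgeR's quasi-likelihood test GMT was not called higher than the control there (adjusted p = 0.0906). At chr2:121361989-121362414 the G libraries had 124, 41.4 and 132 CPM, the M libraries 1.60, 2.91 and 4.38 CPM, and GMT 4.14, 29.4 and 17.0 CPM, overlapping the 24.0, 12.5 and 12.5 CPM of the control.

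**Figure D2:**
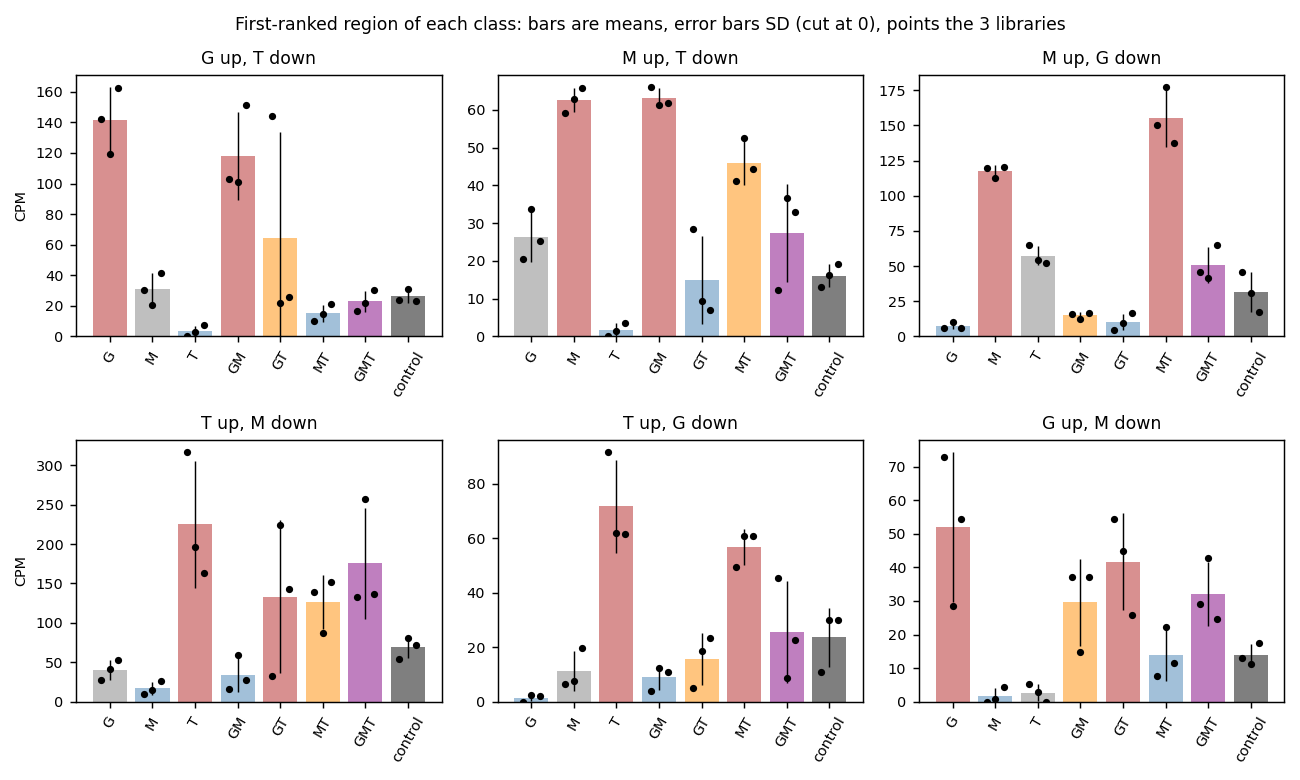
CPM at the first-ranked region of each class in the 8 groups, with bars for the mean of 3 libraries, error bars for the SD (drawn down to 0 at most) and points for the libraries. In the panel of regions opened by G and closed by T, 1 GT library reaches 144 CPM and the other two 22.0 and 25.9 CPM.

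In the pair that held both the opener and the closer, most regions lay between the levels of the single factors and on the opener's side of the control. The pair was above the control in 277 of 352 members (78.7%), against 56.5% of all regions in GM, 56.1% in GT and 55.5% in MT. It was 2-fold or more above the control in 48 members, a mark met by 8.26% of all regions in GM, 10.8% in GT and 12.9% in MT. It was 2-fold or more below in 2, against 3.15%, 4.2% and 4.42% of all regions, and within these bounds in 302. On a log2 scale from 0 at the closer's level to 1 at the opener's, the pair's place had a median of 0.65. It was past the opener in 6 members and below the closer in none. These values share the control and single-factor libraries with the rule and are a description. As the opener's ratio is 2 or more, a pair at the plain mean of its single factors' x always lies above the control. Such a pair also lies nearer the opener on the log2 scale. Neither the share above the control nor the place therefore shows which factor prevailed. The share of all regions is no baseline for them. The pair's values also rest on GT replicate 1. Without it the pair was above the control in 251 members. It was then 2-fold or more above the control in 40 and 2-fold or more below it in 3, with a median place of 0.60.

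Pair by pair, the values were as follows. In MT, the 40 regions opened by T and closed by M had a median log2 ratio of 0.83, with 36 above the control and 15 of them 2-fold or more. The 88 regions opened by M and closed by T had a median of 0.26, with 64 above the control and 5 of them 2-fold or more. The MT libraries were alike in this, at class medians of 0.642, 0.815 and 0.913 for the first class and 0.272, 0.176 and 0.295 for the second. The control entered the rule for both classes, and the difference between them was not tested.

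In GM, the 33 regions opened by G and closed by M had a median log2 ratio of 0.41, with 29 above the control. The 64 regions opened by M and closed by G had 0.23, with 39 above the control. In GT these values turned on the library labelled GT replicate 1. With it, the 92 regions opened by G and closed by T had a median log2 ratio of 0.71, with 90 above the control, and the 35 opened by T and closed by G had 0.01, with 19 above. Without it, the medians were 0.09 and 0.37, with 54 of 92 and 29 of 35 above the control, where 51.1% of all regions were. The order of the classes in GT thus turned round when this library was left out. The control entered the rule for these classes too, and the differences between them were not tested.

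By edgeR's quasi-likelihood test, the pair of opener and closer was called higher than the control at 39 members and lower at 2 (adjusted p under 0.05). Of these, 10 of the 92 regions opened by G and closed by T were higher in GT than in the control, against 13.1% of all regions tested. Leaving out GT replicate 1, 7 of the 92 were higher and 1 lower, and the class median fold change was 0.12 in place of 0.80 on the log2 scale. Of the 35 opened by T and closed by G, 0 were called higher in GT. In that class 1 was called higher at an unadjusted p under 0.05 and 0 by DESeq2, while edgeR without GT replicate 1 called 7 of 35 higher, against 13.3% of all regions, and 0 lower, against 5.08%, with a class median of 0.31 in place of -0.09. In MT, 13 of 40 regions opened by T were called higher and 8 of 88 opened by M, against 17.5% of all regions. In GM, 7 of 64 opened by M and 1 of 33 opened by G were called higher, against 8.5% of all regions, and 0 were called lower, against 3.75%. There 4 were lower at an unadjusted p under 0.05 and 0 by DESeq2. The 2 called lower were 1 of 88 in MT and 1 of 35 in GT, against 7.2% and 5.81% of all regions. The control libraries entered the rule, so nothing is read from these shares. Without GT replicate 1, the pair was called higher than the control at 50 members and lower at 2. Other single libraries also moved the 39, which became 17 when control replicate 2 or control replicate 3 was left out. It became 24 when GM replicate 3 was left out, and 22 and 25 for MT replicates 2 and 3. The 2 became 1 when control replicate 2, control replicate 3 or GT replicate 2 was left out, and 4 for GM replicate 2 or GT replicate 3.

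**Figure D3:**
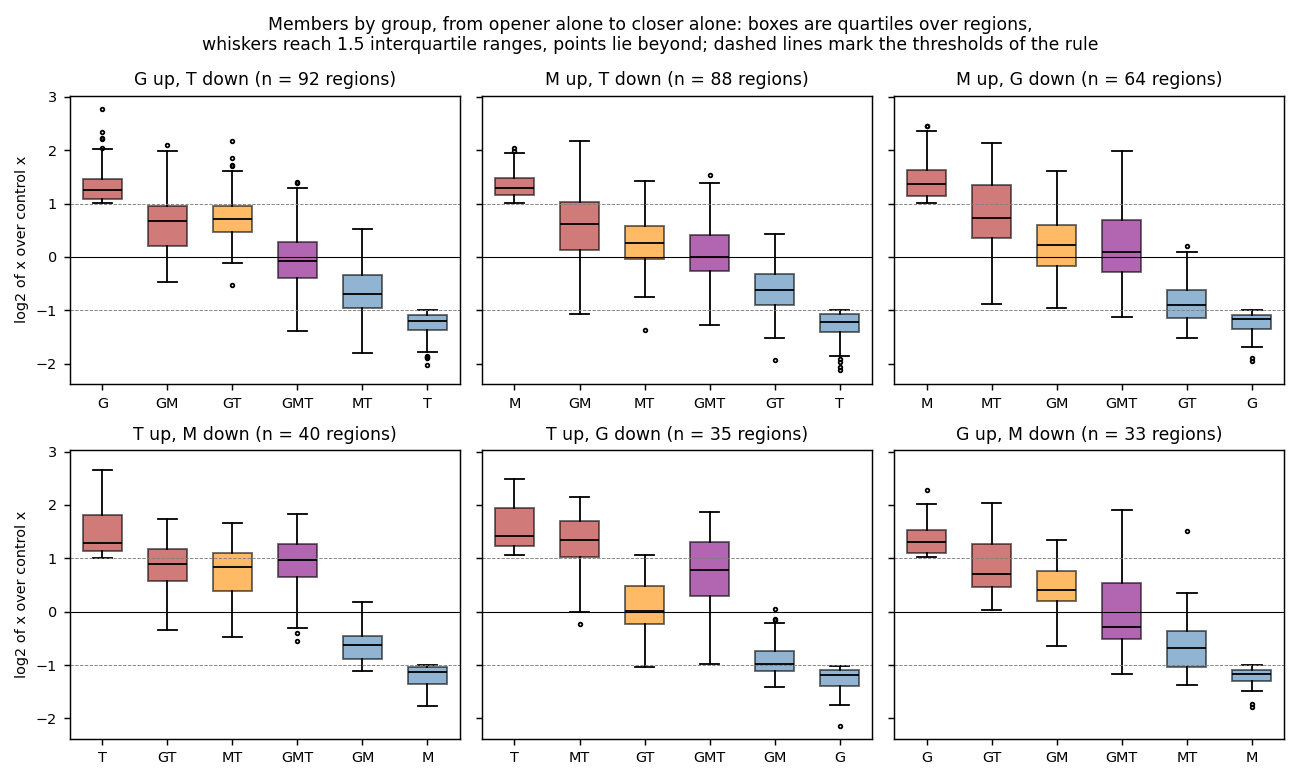
Boxes show the quartiles over the regions of a class of log2 x over control x, in the order opener alone, opener with the remaining factor, opener with closer, GMT, closer with the remaining factor, closer alone. Whiskers reach 1.5 interquartile ranges and dashed lines mark the thresholds of the rule, which fix the outermost boxes. GMT medians were 0.97 and 0.79 in the classes opened by T and between -0.28 and 0.10 in the other four.

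Whether opener and closer also parted in company of the remaining factor could be tested in libraries that the rule did not use. The pair of opener and remaining factor was compared with the pair of closer and remaining factor, all with the chemicals. It was called higher at 257 of 352 members and lower at 0 by edgeR, with 0 lower at an unadjusted p under 0.05 and 0 by DESeq2, which called 250 higher. In edgeR without GT replicate 1, 259 were higher and 0 lower. The fold change was positive in 350 members, with a median of 1.84 on the log2 scale, from -0.26 to 4.03. By class, 58 of 92 regions opened by G and closed by T were higher in GM than in MT, against 5.46% of all regions tested, with a median log2 fold change of 1.67 where all regions had 0.03. For those opened by T and closed by G, 32 of 35 were higher in MT than in GM, against 12.0% of all regions, with a median of 2.77.

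With Gata4 as the remaining factor, 52 of 88 regions opened by M and closed by T were higher in GM than in GT (6.46% of all regions), with a median log2 fold change of 1.61. Of those opened by T and closed by M, 31 of 40 were higher in GT than in GM (7.11% of all regions), with a median of 1.89. With Tbx5 as the remaining factor, 55 of 64 regions opened by M and closed by G were higher in MT than in GT (11.2% of all regions), with a median of 2.29, and 29 of 33 opened by G and closed by M were higher in GT than in MT (8.55% of all regions), with a median of 1.92. Without GT replicate 1 these 4 counts were 56, 38, 51 and 14, in the same order, against 7.23%, 11.0%, 7.66% and 5.17% of all regions. Their medians were then 1.89, 2.31, 2.25 and 1.46. The last count was the one that moved by over 1.5 times. No part of this shows that the members differ from other regions of like level, which was not tested.

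The highest fold change of this comparison was at chr2:6911839-6912415, opened by M and closed by G, where MT averaged 155 ± 20.2 CPM and GT 10.2 ± 5.82 CPM (SD, n = 3 each; log2 fold change 4.03 ± 0.38 SE, adjusted p = 2.93e-08 in edgeR). Without GT replicate 1 it was 3.69 ± 0.42 (adjusted p = 1.13e-06). Of the 3 leading regions of each class all were called except 1. The exception was chr2:152262756-152262961, opened by G and closed by T, with 23.3 ± 14.9 CPM in GM and 8.46 ± 1.74 CPM in MT (log2 fold change 1.48 ± 0.62, adjusted p = 0.101), which passed without GT replicate 1 in the fit (adjusted p = 0.046). The other leading sites of this class had log2 fold changes of 3.03 ± 0.52 at chr3:105721047-105721252 (adjusted p = 0.000138) and 3.06 ± 0.51 at chr5:107876951-107877176 (adjusted p = 0.000114). At chr5:107876951-107877176, G had 213, 114 and 218 CPM, GM 65.5, 56.5 and 107 CPM and MT 8.80, 7.98 and 9.34 CPM. The call at chr8:36529436-36529805 (log2 fold change 1.68 ± 0.51, adjusted p = 0.0186) was lost without GT replicate 1 (adjusted p = 0.0597) and without MT replicate 1 (0.162). That at chr4:45780801-45781352 (2.17 ± 0.49, adjusted p = 0.00378) was lost without GT replicate 2 (0.141) and was 2.66 ± 0.42 without GT replicate 1 (adjusted p = 3.45e-05). That at chr4:101848750-101848993, also opened by T and closed by M, was lost without GT replicate 2 (0.0533) or GM replicate 1 (0.0734), and had an adjusted p of 0.00027 without GT replicate 1.

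**Figure D4:**
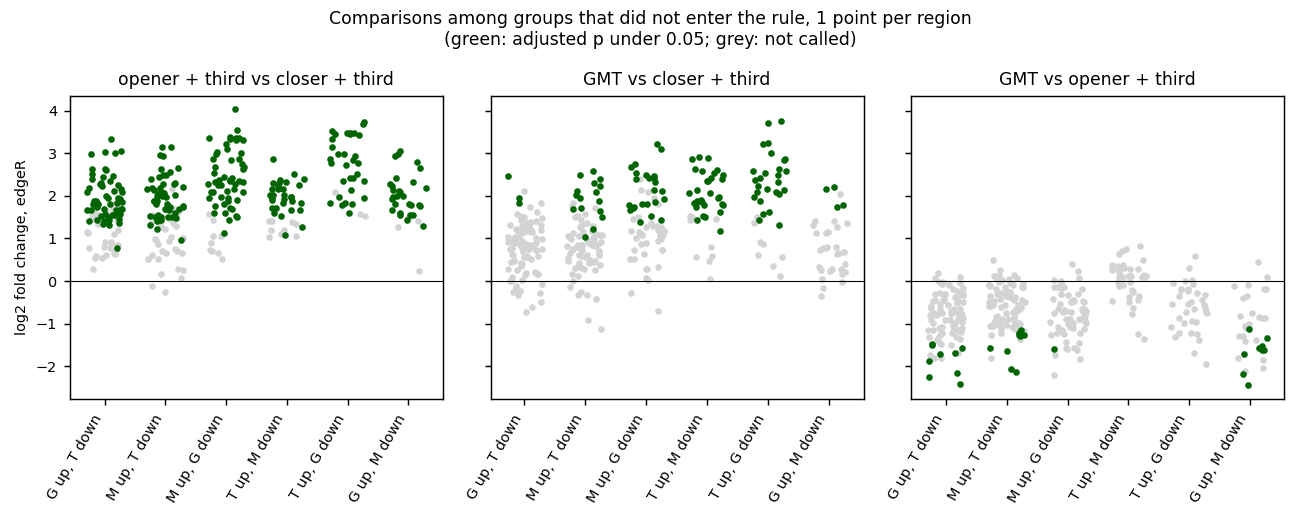
Log2 fold changes from edgeR at each member, by class, for 3 comparisons among groups that the rule did not use, with regions at an adjusted p under 0.05 in green and others in grey. In the left panel 257 regions are called, all above 0, in the middle panel 105, all above 0, and in the right panel 28, all below 0.

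With all 3 factors given, GMT lay between the pair of opener and remaining factor and the pair of closer and remaining factor in 273 of 352 members, at or above the first in 56 and at or below the second in 23. Of the 56, 26 were opened by T and closed by M, where the first pair is GT. With GT replicate 1 left out, GMT lay between the pairs in 292 members, at or above the first in 38, of which 6 were of that class, and at or below the second in 22. The like share over all regions is not given. At the members the pairs lay apart, with a median log2 fold change of 1.84 between them, which leaves room for GMT between them. Nothing is therefore read from these counts. GMT was above the control in 205 members (58.2%), against 54.1% of all regions. Grouped by the role of Tbx5, the members had these values. Of the 75 regions opened by T, GMT was above the control in 66 (88.0%) and 2-fold or more above it in 34 (16.1% of all regions), with a median log2 ratio of 0.89. Of the 180 regions closed by T it was above the control in 89 (49.4%), 2-fold or more above in 12 and 2-fold or more below in 7 (4.91% of all regions), with a median of -0.03. Where Tbx5 was the remaining factor, it was above the control in 50 of 97 (51.5%), with a median of 0.03. On the scale from closer to opener, the median place of GMT was 0.77 in regions opened by T, 0.49 in those closed by T and 0.46 in the rest. These values share the control and the single factors with the rule and were not tested between classes.

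By edgeR, GMT was called higher than the control at 54 members and lower at 13. As the control libraries entered the rule, nothing is read from the shares that follow. In regions opened by T these calls were 17 of 40 (closed by M) and 14 of 35 (closed by G) higher, against 23.0% of all regions, and 0 lower in both, against 10.5%. Of those 75 regions, 1 was lower at an unadjusted p under 0.05, and DESeq2 called 0 lower. Each of the other classes had 4 to 9 members higher and 2 to 4 lower. Under loess offsets against the mean count the split was 50 higher and 28 lower, and with total counts alone 59 and 6. The 54 became 31 without control replicate 3 and 29 without GMT replicate 2. The 13 became 4 and 5 without control replicates 2 and 3, and 27, 6 and 2 without GMT replicates 1, 2 and 3.

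Adding the opener to the pair of closer and remaining factor raised accessibility at 105 of 352 members and lowered it at 0 by edgeR, with 0 lower at an unadjusted p under 0.05 and 0 by DESeq2, which called 109 higher. Leaving out GT replicate 1 gave 103 higher and 0 lower in edgeR. Most of these calls were at regions opened by T. GMT was higher than GM in 31 of 40 regions opened by T and closed by M and in 27 of 35 opened by T and closed by G, against 12.0% of all regions, with median log2 fold changes of 1.86 and 2.14. Mef2c added to GT raised 24 of 64 regions that it opened and G closed and 16 of 88 that T closed, against 5.68% of all regions, with medians of 1.33 and 0.88. Without GT replicate 1 the counts were 16 and 13, against 3.01%, with medians of 1.42 and 1.15. Gata4 added to MT raised 3 of 92 regions closed by T and 4 of 33 closed by M, against 0.839%, with medians of 0.85 and 0.77, positive in 80 of 92 and in 30 of 33.

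The highest of these was at chr4:107634672-107634940, opened by T and closed by G. GMT had 141, 198 and 137 CPM and GM 7.06, 14.7 and 17.0 CPM, against 30.6, 41.2 and 47.3 CPM in the control. The log2 fold change of GMT over GM was 3.77 ± 0.54 (adjusted p = 0.000108). MT had 140, 104 and 133 CPM there, overlapping GMT, and GT 9.88, 104 and 70.6 CPM.

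Adding the closer to the pair of opener and remaining factor lowered accessibility at 28 members and raised it at 0 by edgeR, with 0 higher at an unadjusted p under 0.05 and 0 by DESeq2, which called 34 lower. When GT replicate 1 was left out, edgeR called 0 higher and 36 lower. The median log2 fold change over all members was -0.69, and negative values were the more frequent, with 49 members positive. Tbx5 added to GM lowered 9 of 92 regions opened by G and 9 of 88 opened by M, against 1.7% of all regions, with medians of -0.79 and -0.60. Gata4 added to MT lowered 1 of 64 regions opened by M and 0 of 35 opened by T, against 0.146%, with medians of -0.79 and -0.56. At an unadjusted p under 0.05, 27 and 9 were lower there, and by DESeq2 4 and 0.

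Mef2c added to GT lowered 9 of 33 regions opened by G, against 1.28% of all regions, with a median of -1.13, and 0 of 40 opened by T, with a median of 0.11. In those opened by T 2 were lower at an unadjusted p under 0.05, and DESeq2 called 0. Without GT replicate 1, whose counts resemble those of G alone, Mef2c lowered 0 of 33 and 1 of 40, against 0.245% of all regions, and the medians were -0.74 and -0.37, so the sign of the second median turned. The 28 became 7 without GMT replicate 2, 8 without GMT replicate 3 and 18 without GM replicate 3. Loess offsets gave 44.

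At chr3:105721047-105721252, the leading site opened by G and closed by T, adding Tbx5 to GM gave a log2 fold change of -2.25 ± 0.49 (adjusted p = 0.00206), with 22.9 ± 6.87 CPM in GMT and 118 ± 28.8 CPM in GM (SD, n = 3 each). At chr5:107876951-107877176 it was -1.87 ± 0.47 (adjusted p = 0.00657). Gata4 lowered chr2:6911839-6912415 when added to MT (log2 fold change -1.61 ± 0.32, adjusted p = 0.0145), the single call for Gata4, and Mef2c raised the same site when added to GT (2.43 ± 0.40, adjusted p = 0.000239, and 2.09 ± 0.43, adjusted p = 0.00407, without GT replicate 1). Calls for Mef2c that were lost without GT replicate 1 included chr14:70053936-70054142, which had the lowest fold change of all 28 (-2.46 ± 0.75, adjusted p = 0.0395, and 0.286 without that library), and chr4:119902050-119902660 (-1.13 ± 0.31, adjusted p = 0.0247, and 0.357 without it).

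Adding the remaining factor to the pair of opener and closer raised 9 members and lowered 21 by edgeR, and with loess offsets 7 and 30. Of these, 15 of the 92 regions opened by G and closed by T were lower in GMT than in GT, against 1.28% of all regions, and 5 of the 35 opened by T and closed by G were higher, against 5.68%. These were 1 and 1 without GT replicate 1, against 0.245% and 3.01% of all regions. In regions opened by G and closed by M, Tbx5 added to GM lowered 6 of 33 and raised 3, against 1.7% and 12.0% of all regions. At chr17:30659759-30660054 of that class, GMT had 8.29, 8.56 and 2.83 CPM and GM 30.8, 12.3 and 74.2 CPM, against 19.7, 22.5 and 20.8 CPM in the control. Its log2 fold change of GMT over GM was -2.70 ± 0.63 (adjusted p = 0.00396), and the call was lost without GM replicate 3 (adjusted p = 0.0576) and without GMT replicate 3 (0.0578). The highest was at chr10:96160241-96160603, opened by T and closed by G, where Mef2c added to GT gave 49.7, 97.9 and 91.6 CPM in GMT, with 12.3, 18.7 and 35.3 CPM in GT (log2 fold change 1.98 ± 0.41, adjusted p = 0.00251, and 1.70 ± 0.44, adjusted p = 0.0231, without GT replicate 1). That call was lost when only GMT and GT were fitted (adjusted p = 0.0662). Over all members, the 9 raised became 5 without GT replicate 1, 5 without GMT replicate 2 and 3 without GMT replicate 3. The 21 lowered became 7 without GT replicate 1, 34 without GT replicate 3, 5 without GMT replicate 2 and 4 without GMT replicate 3.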

How the data were processed

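The authors deposited raw counts per region and library, and per the submitters' processing notes Bowtie2, Picard and featureCounts were used with build mm9. The definition of the regions, the read filters and the counted unit (read or fragment) are not given in the sources used here. Start, end and width of each region are other values of the deposited table. Counts of 24 libraries were used, and the 3 samples of dsRed cells with the chemicals were not analysed here. CPM in the text is on the library total without TMM. Regions were kept by filterByExpr (minimum count 10, minimum total 15), which left 20494 of 30815 (66.5%). All 8 groups were fitted together in R 4.3.3 with edgeR 4.0.16 (TMM, glmQLFit and glmQLFTest), and p-values were adjusted by Benjamini-Hochberg over all regions tested in each comparison. Standard errors (SE) were taken as the fold change on the log2 scale divided by the square root of F. DESeq2 1.42.0, RLE factors, total counts, loess offsets (limma 3.58.1, span 0.3), other filters, fits of only the compared groups, a replicate block and leaving out each library were alternatives. The test was tried on simulated data first. Regions named were the 3 members of each class with the largest smaller-of-the-two changes, and the called members with the highest and lowest fold change in each comparison. The members, classes and tests were chosen with earlier results of these data known. No genome of build mm9 was used here, so no sequences, motifs or genes are given.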

Additional observations from a re-analysis of the deposited data

How the results depend on the processing

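Of 330 comparisons of a count or share with its value under another setting, 289 stayed within 1.5 times. These 289 include counts that were 0 in every setting, such as members with the opener's pair called below the closer's pair. Loess offsets gave 44 members lowered by the closer (28 as reported) and 28 lower in GMT than in the control (13), where total counts alone gave 6 and fits of only the compared groups 20. Such fits gave 4 raised and 5 lowered by the remaining factor (9 and 21). Without a filter on low counts 5 were raised by it, and 24 were higher in the pair of opener and closer than in the control (39). The rule itself found 1083 regions with 2 CPM added, 109 with 10 CPM added, 2638 with thresholds of 1.5 and its inverse and 3 with thresholds of 3.

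Leaving out 1 library at a time gave 194 to 262 members with the opener's pair called above the closer's pair and 0 below it. It gave 73 to 104 raised by the opener, 7 to 42 lowered by the closer, and 3 to 11 raised and 4 to 34 lowered by the remaining factor. The pair of opener and closer was called above the control in 17 to 50 and below in 1 to 4, and GMT above in 29 to 65 and below in 2 to 27. The pair was above the control in 71.3 to 85.8% of members and GMT in 53.4 to 62.2%. The rule found 307 to 599 regions, with 582 without G replicate 2 and 599 without T replicate 3. Of 387 settings for the 23 named regions, 366 kept the side of the threshold, 21 lost a call and 0 reversed. The cause of these shifts was not tested.

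With the replicate number as a block, 250 members had the opener's pair called above the closer's pair, 106 were raised by the opener, 27 lowered by the closer, and 8 raised and 22 lowered by the remaining factor. The pair of opener and closer was called higher than the control at 39 and lower at 2, and GMT at 56 and 12. Same-numbered libraries correlated between -0.437 and 0.482 in their deviations from the group means, so the numbers were not taken to pair the samples. Depth limits values that rest on a few counts, as at regions closed by a factor. The shallowest single-factor library, T replicate 1, had 382527 counts in total. In GMT replicate 1, the shallowest of all libraries, 1 count is 4.14 CPM.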

Other observations

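Members lay on all autosomes and on X. Their share of the regions on a chromosome ran from 0.68% on chromosome 16 (7 of 1028) to 1.62% on chromosome 2 (41 of 2537). They were somewhat wider than other regions, with a median width of 294.5 bp, against 261.0 bp over the regions tested.

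Among the members 3 neighbouring pairs lay within 10 kb of each other. The like count for other regions is not given, so whether members are spaced differently cannot be said. At chr14:61780338-61780596 and chr14:61780682-61781000, with a gap of 85 bp, both were opened by M and closed by T. At chr6:67091738-67092082 and chr6:67092116-67092576, with a gap of 33 bp, both were opened by T and closed by M. At chr14:73413912-73414167 and chr14:73414219-73414421, with a gap of 51 bp, M opened both while T closed the first most and G the second. In 0 of the 3 pairs was a factor the opener of one region and the closer of the other.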
